A study of Mus musculus with 9 samples.

Results

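The mRNA of 10 chemokines made by activated microglia was followed in cultured mouse microglia after knockdown of Chd8 or Tsc2. The genes, Ccl2, Ccl3, Ccl4, Ccl5, Ccl7, Ccl12, Cxcl1, Cxcl2, Cxcl10, and Cxcl16, were chosen by name, and the counts of all Ensembl transcripts of each gene were summed. They are 10 of the 54119 genes in the table, and each of them was among the 16273 genes with enough counts to be tested. RNA-seq was performed on 9 libraries of primary microglia from C57BL/6J mice, 3 each treated with a negative control siRNA, with Chd8 siRNA, or with Tsc2 siRNA. Chd8 encodes a chromatin remodeler, and Tsc2 encodes tuberin, which restrains mTORC1. Cells of the 3 groups were shaken from mixed glial cultures of whole brains at E18, transfected with siRNA, and harvested for RNA 3 days later. The paper describes the sequenced cells as stimulated with LPS, a bacterial ligand of Tlr4, which the sample labels do not name, and no library is labelled as unstimulated, so the levels below are not a measure of induction. The libraries of each group carry the replicate numbers 1, 2, and 3, and deviations from the group means went together in libraries with the same number, so a fit with the number as a block was made beside the fit without it.

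Chemokines are small proteins that guide leukocytes along a gradient through G protein-coupled receptors, and the arrangement of their first cysteines separates the CC from the CXC family. Microglia make them when Toll-like receptors, cytokine receptors, or interferon receptors are engaged, largely through NF-κB, AP-1, and interferon-responsive factors. Ligands of Ccr2 draw monocytes, Ccl3, Ccl4, and Ccl5 act on monocytes, T cells, and microglia, ligands of Cxcr2 act on neutrophils and on cells of the oligodendrocyte lineage, and Cxcl10 acts on T cells through Cxcr3.

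The libraries held 16913448 to 33213801 counts, so that 3 counts corresponded to 0.0903 to 0.177 counts-per-million (CPM). The target genes were examined first. Chd8 was at 117.9, 97.4, and 93.6 CPM in control libraries 1, 2, and 3 and at 86.8, 44.5, and 38.3 CPM in Chd8 siRNA libraries 1, 2, and 3, and was lower with the block (log2 fold change -0.93, adjusted p = 0.00777, edgeR). This call was kept in 3 of 6 fits that left out a library, and without the block Chd8 was not called (log2 fold change -0.86, adjusted p = 1.00). Tsc2 was at 40.8, 39.9, and 38.9 CPM in the control libraries and at 24.6, 30.6, and 36.5 CPM in the Tsc2 siRNA libraries, a difference that was not past the threshold (log2 fold change -0.39, adjusted p = 0.219 with the block). The microglial label was checked against 10 marker genes, 9 of which passed the count filter. Their sum was 1707 to 2442 CPM, while P2ry12 was at 0.686 to 2.78 CPM and Tmem119 did not pass the filter, so those homeostatic markers were nearly absent. The sum of 5 monocyte and border macrophage markers, 2 of which passed the filter, was 60.5 to 90.6 CPM, mostly Mrc1 at 55.6 to 84.0 CPM, with Lyve1 at 0 in all 9 libraries. The sum of 3 neutrophil markers, of which 1 passed, was 0 to 0.670 CPM with Ly6g and S100a9 at 0, and that of 3 lymphocyte markers, none of which passed, was 0 to 0.601 CPM with Nkg7 at 0.

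The sequences upstream of 4 members are shown because Cxcl1 and Cxcl2 varied most between libraries, and because Cxcl10 and Ccl12 each passed an FDR of 0.05 in 1 comparison with the block. Ccl7, which also passed, had no window in the table. The windows are the 250 bases before the RefSeq start site on GRCm38.p6, written 5′ to 3′ on the strand of the gene. Capitals mark matches to the NF-κB consensus and, in Cxcl10, also to a pair of GAAA runs with 2 bases between them, the core of the interferon-stimulated response element.
Cxcl1, chr5:90890995-90891244, plus strand: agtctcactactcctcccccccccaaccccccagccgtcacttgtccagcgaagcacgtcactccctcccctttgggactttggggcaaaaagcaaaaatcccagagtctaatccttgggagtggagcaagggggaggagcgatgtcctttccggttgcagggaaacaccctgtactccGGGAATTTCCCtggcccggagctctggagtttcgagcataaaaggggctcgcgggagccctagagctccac
Cxcl2, chr5:90903649-90903898, plus strand: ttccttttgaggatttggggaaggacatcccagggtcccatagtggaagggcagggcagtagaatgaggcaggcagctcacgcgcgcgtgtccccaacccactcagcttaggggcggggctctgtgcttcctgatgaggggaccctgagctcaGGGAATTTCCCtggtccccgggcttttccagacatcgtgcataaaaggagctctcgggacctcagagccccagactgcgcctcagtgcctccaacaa
Cxcl10, chr5:92348890-92349139, minus strand: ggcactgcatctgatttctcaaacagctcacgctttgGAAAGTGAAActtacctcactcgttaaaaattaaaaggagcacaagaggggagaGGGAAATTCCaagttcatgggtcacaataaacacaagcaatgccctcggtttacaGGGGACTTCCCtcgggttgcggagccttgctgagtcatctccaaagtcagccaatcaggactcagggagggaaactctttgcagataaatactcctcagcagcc
Ccl12, chr11:82101595-82101844, plus strand: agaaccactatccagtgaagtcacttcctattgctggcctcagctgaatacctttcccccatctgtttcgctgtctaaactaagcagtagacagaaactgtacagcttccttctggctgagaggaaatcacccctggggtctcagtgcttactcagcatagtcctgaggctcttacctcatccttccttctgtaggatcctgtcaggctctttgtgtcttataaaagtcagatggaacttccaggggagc
Cxcl1 and Cxcl2 had the same 11-base run, GGGAATTTCCC, made of 2 overlapping matches, from 71 to 61 bases upstream in Cxcl1 and from 97 to 87 bases upstream in Cxcl2. It lay inside a run of 14 bases shared by both windows, gggaatttccctgg, the longest run shared by any pair of the 5 members with a RefSeq window. Cxcl10 had 3 NF-κB matches, of which the ones starting 104 and 103 bases upstream overlap, and it had GAAAGTGAAA from 213 to 204 bases upstream. It also held TGAGTCA, a match to the AP-1 motif TGANTCA, from 74 to 68 bases upstream. Ccl12 had none of these but had TATAAA from 31 to 26 bases upstream, and Ccl3 had no match to any of the 4 motifs. Both strands were searched, and of 32851 windows of the same length, 7.25% held the NF-κB consensus, 2.98% held the GAAA pair, 6.75% held TGANTCA, and 12.37% held TATAAA. A match says only that these letters are present. Ccl2, Ccl4, Ccl5, and Cxcl16 had no window either.

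The chemokine transcripts were among the most abundant in these cells. Together they made up 1.34 to 2.44% of all counts in a library. Per length of transcript, Ccl3 was highest in the control libraries, with 9703 ± 2842 CPM per kilobase (SD, n = 3), and was 9th of the 16273 genes tested. Ccl4 followed with 4418 ± 987 CPM per kilobase and Ccl5 with 3918 ± 618 CPM per kilobase. Cxcl2 was at 2334 ± 1606 CPM per kilobase and Cxcl10 at 1697 ± 331 CPM per kilobase. The ranges of Ccl3 and Ccl4 did not overlap in the control libraries, whereas Ccl4, Ccl5, Cxcl2, and Cxcl10 overlapped each with its neighbor in this order. Ccl2 was at 906 ± 141 CPM per kilobase, below the range of Cxcl10, Ccl12 was at 677 ± 150, overlapping Ccl2, and Ccl7 was at 419 ± 67.6, below the range of Ccl12. Cxcl1, at 278 ± 266 CPM per kilobase, overlapped both Ccl7 and Cxcl16, which was lowest at 249 ± 90.6 CPM per kilobase and still 253rd in that order.

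**Figure D1:**
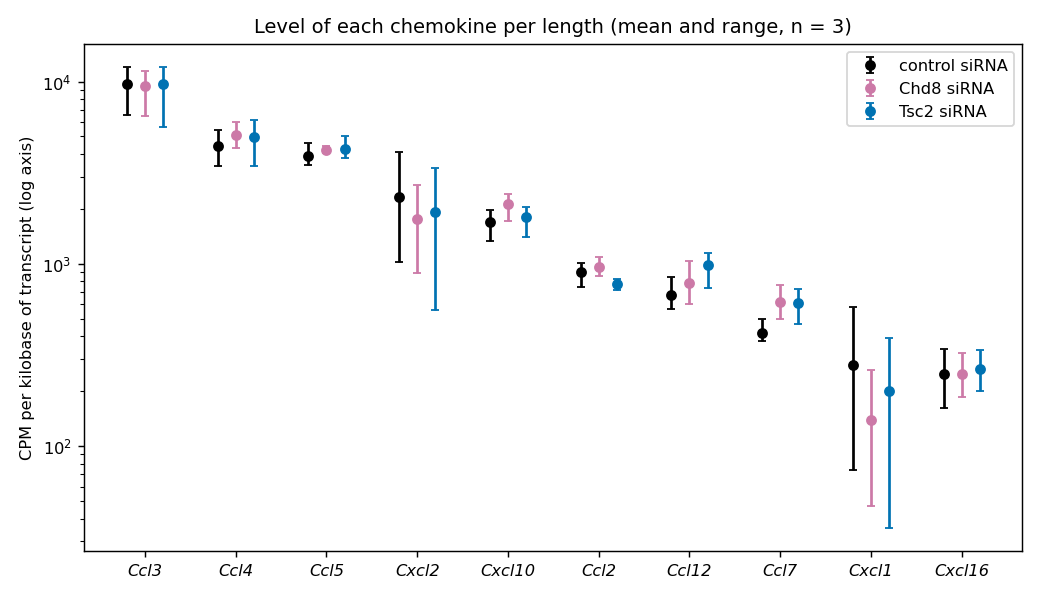
Level of each chemokine in CPM per kilobase of transcript on a log axis, with the mean (point) and the range (bar) of 3 libraries for control siRNA, Chd8 siRNA, and Tsc2 siRNA. Ccl3 lies highest and Cxcl1 and Cxcl16 lowest in the control libraries, and the bars of Cxcl2 and Cxcl1 are the longest.

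Expression differed far more between libraries of different number than between siRNAs. The number, tested across all genes in a model with the siRNA, passed an FDR of 0.05 for 9 of the 10 chemokines, against 25.0% of all genes tested (4076 genes). Ccl2 was the exception (adjusted p = 0.225). A partition of the variance of log2(CPM + 0.5) over the 9 libraries gave a median of 77.7% to the number, 11.1% to the siRNA, and 5.32% to the rest over the 10 chemokines, beside medians of 41.9%, 18.0%, and 28.2% over all genes tested. All 10 ranked 253rd or higher of the 16273 genes per length in the control libraries, whereas the genes tested include scarce ones. Genes of like abundance were not compared. For Ccl3 the number took 97.2% of the variance and the siRNA 0.117%. For Ccl7 the siRNA took more, 52.9%, than the number, 41.8%, and Ccl2 was the only other member with this order, at 45.9% and 21.4%. What the numbers stand for beyond their labels is not stated for these libraries, so culture, brain, and preparation cannot be told apart.

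**Figure D2:**
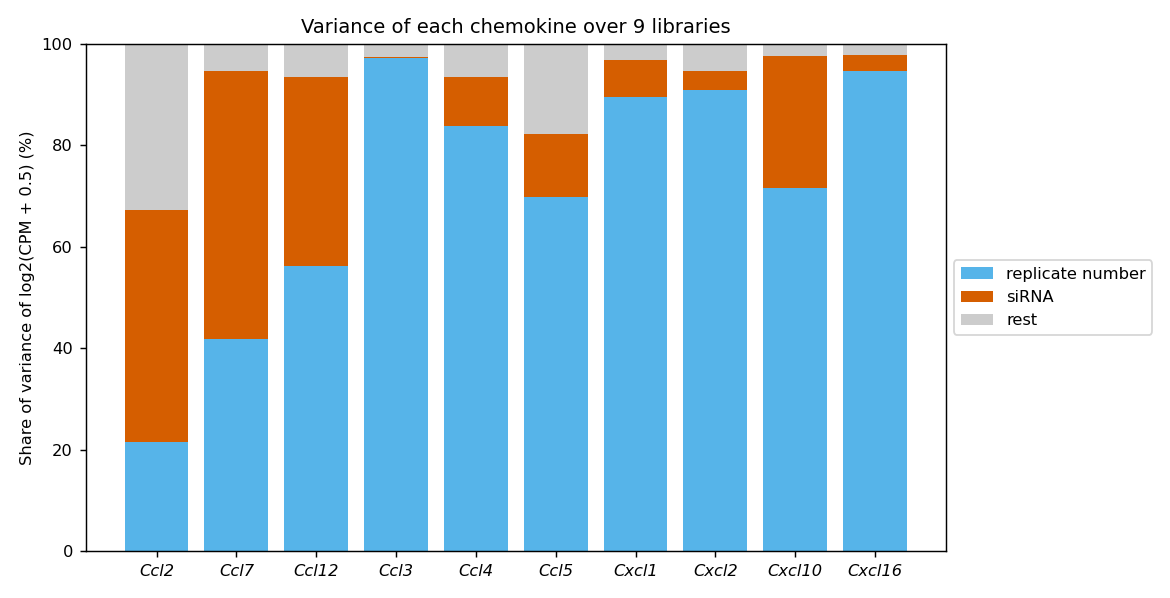
Share of the variance of log2(CPM + 0.5) over 9 libraries, in percent, taken by the replicate number, by the siRNA, and by the rest, for each chemokine. The share of the number is highest for Ccl3 (97.2%) and lowest for Ccl2 (21.4%).

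Of the 3 ligands of Ccr2, Ccl7 and Ccl12 lay above the control library of the same number in every knockdown library, and Ccl2 did not. Ccl7, a monocyte attractant, was at 398, 304, and 305 CPM in control libraries 1, 2, and 3, at 614, 397, and 464 CPM with Chd8 siRNA, and at 582, 375, and 516 CPM with Tsc2 siRNA. Every knockdown library was above the control library of its number, although the groups overlapped, with library 1 highest in each. The log2 fold change was 0.54 for each knockdown with the block (SE 0.0814), with an interval of 0.37 to 0.71 and an adjusted p of 0.00711 for Chd8 and an interval of 0.36 to 0.71 and an adjusted p of 0.00918 for Tsc2. In both comparisons Ccl7 therefore passed the FDR but not the fold of 1.5, since the fitted folds were 1.45 for each. Without the block the adjusted p was 1.00 in both, with unadjusted p = 0.0249 for Chd8 and 0.0257 for Tsc2 (edgeR). Leaving out control library 3 took the adjusted p to 0.0915 for Chd8 siRNA, and for Tsc2 siRNA it passed the FDR in 4 of the 6 fits that left out a library. Both comparisons use the same control libraries.

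Ccl12, which lies beside Ccl2 and Ccl7 on chromosome 11 and also binds Ccr2, was at 455, 304, and 331 CPM in control libraries 1, 2, and 3 and at 559, 322, and 386 CPM with Chd8 siRNA. With Tsc2 siRNA it was at 616, 396, and 580 CPM. Each knockdown library again lay above the control library of its number, and the groups overlapped. The log2 fold change with the block was 0.55 for Tsc2 siRNA (SE 0.0870, interval 0.36 to 0.73, adjusted p = 0.00995), past the FDR but not the fold, and 0.20 for Chd8 siRNA (SE 0.0868, adjusted p = 0.337). Chd8 siRNA against Tsc2 siRNA gave -0.34 (adjusted p = 0.116), so a difference between the knockdowns was not shown. The Tsc2 value passed the FDR in 3 of the 6 fits with the block that left out a library, and was lost without control library 3 and without Tsc2 siRNA library 2 or 3. For Ccl7 and Ccl12 the log2 difference of Tsc2 siRNA from control was largest at number 3, at 0.76 and 0.81. At that number Tsc2 itself was closest to its control level. Whether these differences follow the loss of Tsc2 was not tested.

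Ccl2 is the main monocyte attractant of the group. Unlike Ccl7 and Ccl12, it was not above the control library of the same number in every knockdown library. The genes were not tested against each other. Ccl2 was at 611, 783, and 827 CPM in control libraries 1, 2, and 3, at 702, 774, and 885 CPM with Chd8 siRNA, and at 677, 585, and 628 CPM with Tsc2 siRNA. All Chd8 siRNA libraries were above all Tsc2 siRNA libraries, where 8.44% of all genes tested did not overlap, and Ccl2 was the only chemokine of the 10 to do so in any of the 3 comparisons. In the knockdowns against control none of the 10 was without overlap, beside 9.09% (Chd8 siRNA) and 8.11% (Tsc2 siRNA) of all genes. For Ccl2 in Chd8 siRNA against Tsc2 siRNA, the two-sided exact permutation test returned p = 0.1 (n = 3 each), its lower limit for groups of this size. The log2 difference was 0.32 without the block (adjusted p = 1.00) and 0.31 with it (SE 0.0928, interval 0.11 to 0.51, adjusted p = 0.186). Against the control libraries the block gave 0.09 with Chd8 siRNA and -0.22 with Tsc2 siRNA, and neither passed the FDR (adjusted p = 0.762 and 0.401).

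**Figure D3:**
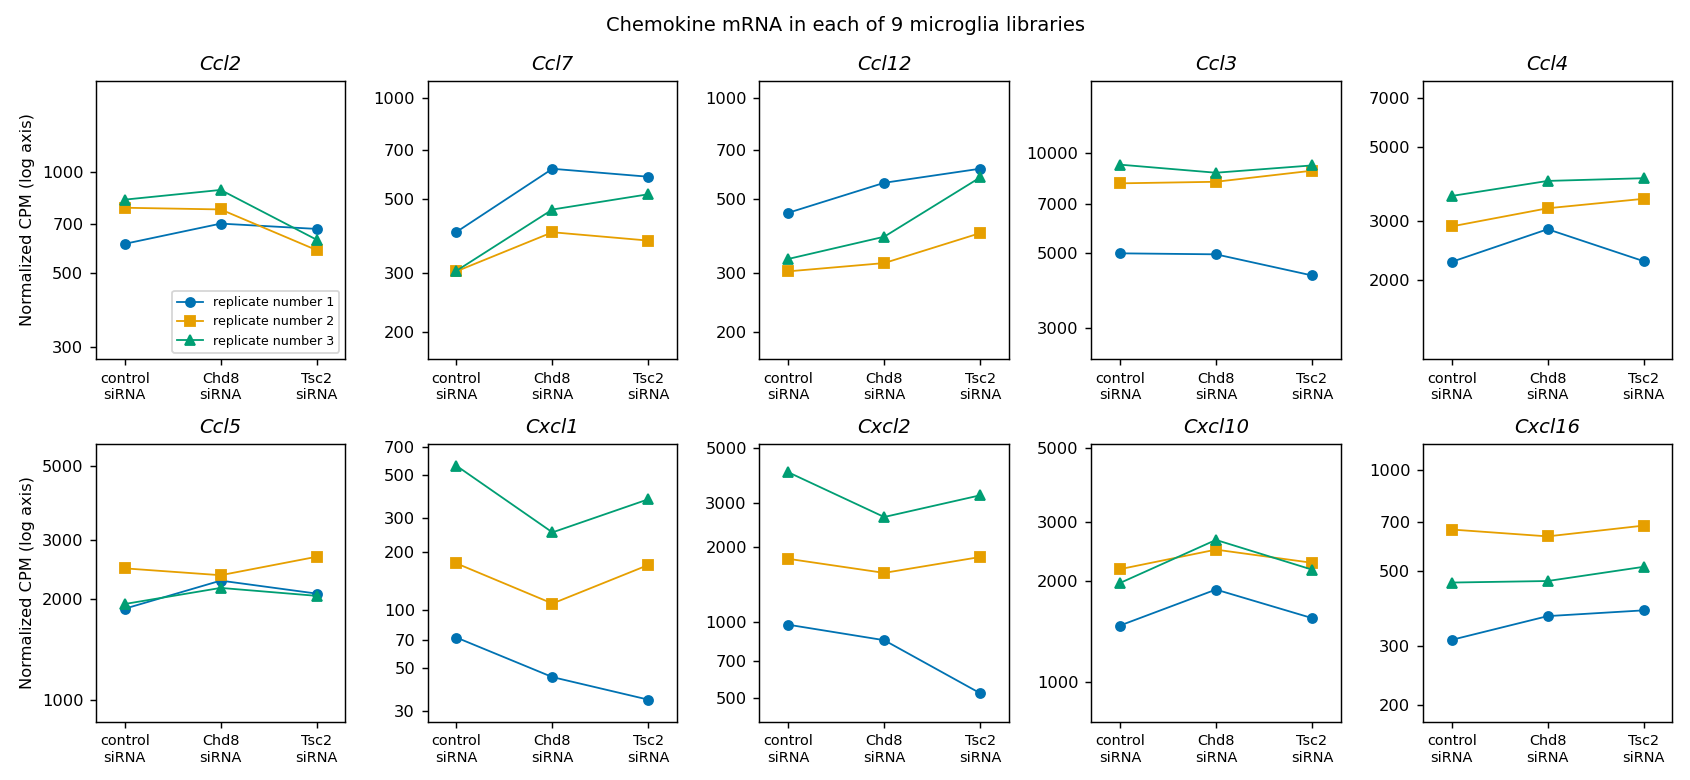
Normalized CPM of the 10 chemokines in each of 9 libraries on log axes, with a point for each library and a line joining the libraries of each replicate number across control, Chd8, and Tsc2 siRNA. Ccl7 is higher in both knockdowns at each number, Cxcl1 is lower in both, and the lines of Cxcl1 and Cxcl2 are farthest apart.

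The inflammatory CC chemokines Ccl3, Ccl4, and Ccl5 were the most abundant of the 10 per length in the control libraries, and none of the 3 passed the FDR with either siRNA. Ccl3 (MIP-1α) was at 5002, 8093, and 9203 CPM in control libraries 1, 2, and 3. It was at 4968, 8180, and 8706 CPM with Chd8 siRNA and at 4298, 8827, and 9154 CPM with Tsc2 siRNA. The number 1 libraries were lowest in each group, and the log2 difference of number 3 from number 1 was 0.92 (adjusted p = 9.96e-08). With the block the knockdown intervals of Ccl3 were narrow and held 0, from -0.16 to 0.11 for Chd8 siRNA and from -0.17 to 0.10 for Tsc2 siRNA, so that a change of 1.5-fold lay outside both in this fit. Without the block they ran from -0.76 to 0.71 and from -0.74 to 0.73, and a change of 1.5-fold in either direction lay inside both. Ccl4 (MIP-1β) was at 2273, 2900, and 3575 CPM in the control libraries, at 2844, 3285, and 3964 CPM with Chd8 siRNA, and at 2283, 3505, and 4039 CPM with Tsc2 siRNA. It was higher than in the control library of the same number in each knockdown library, but neither log2 difference with the block, 0.22 (interval 0.07 to 0.37) and 0.16 (interval 0.0080 to 0.30), passed the FDR (adjusted p = 0.157 and 0.438). Ccl5 (RANTES), a ligand shared by Ccr1 and Ccr3, had the narrowest spread, its highest library being 1.43 times its lowest. It was at 1875, 2474, and 1937 CPM in the control libraries, at 2274, 2361, and 2163 CPM with Chd8 siRNA, and at 2080, 2680, and 2048 CPM with Tsc2 siRNA. Its number 2 libraries were the highest of each group, and neither knockdown passed the FDR (adjusted p = 0.466 and 0.605 with the block).

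The ligands of Cxcr2 varied most. Cxcl1 (KC) was at 72.1, 174, and 557 CPM in control libraries 1, 2, and 3. It was at 45.0, 108, and 252 CPM with Chd8 siRNA and at 34.4, 171, and 374 CPM with Tsc2 siRNA. The highest library was 16.2 times the lowest, the number 3 libraries lay above the number 1 libraries by 2.93 on the log2 scale (adjusted p = 2.16e-08), and within each number the control library was highest. Cxcl2 (MIP-2), encoded beside Cxcl1 on chromosome 5, was at 979, 1796, and 3985 CPM in the control libraries, at 849, 1578, and 2639 CPM with Chd8 siRNA, and at 521, 1827, and 3223 CPM with Tsc2 siRNA. It shared the order of the numbers, with number 3 above number 1 by 2.08 on the log2 scale (adjusted p = 2.18e-07).

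Cxcl1 was lower after Chd8 knockdown and was the only chemokine of the 10 called in any comparison. Its log2 fold change with the block was -0.84 (SE 0.157, interval -1.17 to -0.51, adjusted p = 0.0189), and it was lower in 3 of 3 numbers. Without the block it was -0.99, with an interval of -3.03 to 1.05 (adjusted p = 1.00), and it turned to 0.13 when control library 3 was left out of that fit. With the block and 1 library left out, the value stayed between -1.05 and -0.69, but the call was kept in only 2 of 6 fits. It was lost without control library 1 (adjusted p = 0.0722) or 3 (0.210) and without Chd8 siRNA library 2 (0.148) or 3 (0.178). Tsc2 siRNA gave -0.53 with the block (SE 0.156, interval -0.86 to -0.19, adjusted p = 0.189), and the difference between the knockdowns, -0.31 (interval -0.65 to 0.02, adjusted p = 0.506), did not pass the test. Cxcl2 had log2 fold changes of -0.32 for Chd8 siRNA and -0.38 for Tsc2 siRNA with the block, and neither passed the FDR (adjusted p = 0.338 and 0.331). Cxcl3, another Cxcr2 ligand of the cluster and not 1 of the 10, was called with Chd8 siRNA in the same fit (log2 fold change -1.06, SE 0.167, adjusted p = 0.00849). It was at 31.3, 60.2, and 133.8 CPM in the control libraries and at 13.3, 42.1, and 52.6 CPM with Chd8 siRNA, and it lost the call without either number 3 library. With Tsc2 siRNA Cxcl3 ranged from -0.98 to -0.52 over the 6 fits with the block that left out a library, and was called in 1. Between the knockdowns it was called in 0 of 6. Cxcl5, a further Cxcr2 ligand there, was at 0.603 to 1.97 CPM and was not called.

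As sums, markers of astrocytes and of fibroblasts and pericytes, other cells of a mixed glial culture, shared some of the order of these genes. Of the markers tested, Gfap, Aqp4, Slc1a3, Aldh1l1, Col1a1, and Pdgfrb rose from number 1 to 2 and from 2 to 3. The others did not: S100b was lower at number 3 than at number 1 (log2 difference -0.74). Gja1 and Col3a1 were lower at number 2 than at number 1 (-0.67 and -2.96). The sum of 6 astrocyte markers, all of which passed the filter, was 12.1, 20.6, and 96.3 CPM in control libraries 1, 2, and 3, 10.8, 21.6, and 39.4 CPM with Chd8 siRNA, and 10.1, 23.7, and 48.0 CPM with Tsc2 siRNA. The sum of 5 fibroblast and pericyte markers, 3 of which passed the filter, was 8.30, 22.7, and 62.0 CPM in the control libraries, 8.91, 9.63, and 24.8 CPM with Chd8 siRNA, and 7.68, 19.5, and 45.0 CPM with Tsc2 siRNA. Both sums were highest in control library 3, where Cxcl1, Cxcl2, and Cxcl3 also had their highest values. With Chd8 siRNA the astrocyte sum was not lower at number 2 and the fibroblast and pericyte sum not lower at number 1, whereas Cxcl1 was lower at both. The sums of 7 oligodendrocyte lineage markers (4 passed the filter), 11.4 to 27.2 CPM, of 4 endothelial markers (3 passed), 46.2 to 61.1 CPM, and of 4 neuronal markers (2 passed), 0.586 to 1.67 CPM, did not share the order of Cxcl1 over the numbers in any of the 3 groups. Col1a1 fell with Chd8 siRNA with the block (log2 fold change -1.31, adjusted p = 0.0218). The part of these cells in the difference of Cxcl1 was not tested. In bulk RNA, fewer cells of a type and less RNA per cell cannot be told apart.

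**Figure D4:**
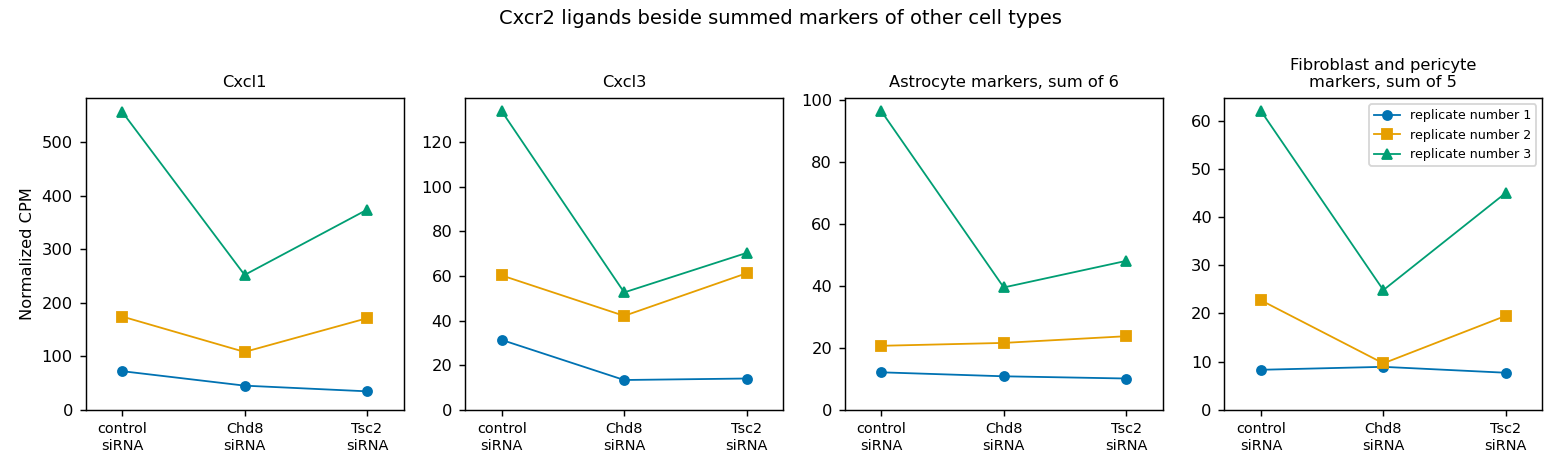
Normalized CPM of Cxcl1, Cxcl3, and the summed markers of astrocytes and of fibroblasts and pericytes in 9 libraries on linear axes from 0, with a line joining the libraries of each replicate number. Control library 3 is the highest point of each panel, and at number 3 Cxcl1, Cxcl3, and both marker sums are lower in each knockdown than in the control.

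Cxcl10, an interferon-induced ligand of Cxcr3, was higher after Chd8 knockdown. It was at 1476, 2174, and 1977 CPM in control libraries 1, 2, and 3, at 1890, 2487, and 2658 CPM with Chd8 siRNA, and at 1554, 2272, and 2168 CPM with Tsc2 siRNA. The Chd8 siRNA library was highest within each number, and the groups overlapped. The log2 fold change for Chd8 siRNA was 0.33 with the block (SE 0.0592, interval 0.20 to 0.45, adjusted p = 0.0173), past the FDR and below the fold of 1.5, and it passed in 2 of the 6 fits that left out a library. Without the block it was 0.32 (adjusted p = 1.00). Tsc2 siRNA gave 0.09 (interval -0.04 to 0.22, adjusted p = 0.656), and Chd8 siRNA against Tsc2 siRNA gave 0.24 (adjusted p = 0.116). Cxcl16, a transmembrane chemokine that is shed by Adam10 and binds Cxcr6, was at 312, 666, and 463 CPM in the control libraries, at 367, 636, and 468 CPM with Chd8 siRNA, and at 382, 685, and 516 CPM with Tsc2 siRNA. Its number 2 libraries were highest in each group, and its log2 fold changes with the block were 0.06 and 0.16 (adjusted p = 0.800 and 0.438).

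Over the 10 chemokines, none was called in any of the 3 comparisons without the block, where 0% of all genes tested were called, and 1 of 10 had an unadjusted p under 0.05 with Chd8 siRNA (3.82% of all genes tested) and 1 of 10 with Tsc2 siRNA (2.61%), Ccl7 in both, while none did in Chd8 siRNA against Tsc2 siRNA (3.10%). DESeq2's Wald test also called 0 of the 10 and called 9, 6, and 5 genes in all. With the block, 1 of 10 was called with Chd8 siRNA, against 0.535% of all genes tested, and 0 of 10 with Tsc2 siRNA, against 0.387%. At the FDR alone 3 of 10 passed with Chd8 siRNA, Ccl7 and Cxcl10 up and Cxcl1 down, against 1.04% of all genes, and 2 of 10 passed with Tsc2 siRNA, Ccl7 and Ccl12, both up, against 0.639%. In Chd8 siRNA against Tsc2 siRNA none was called with the block, against 0.221%, or at the FDR alone, against 0.375%. The difference had the same sign at all 3 numbers for 6 of 10 with Chd8 siRNA, where 36.0% of all genes did so, and for 7 of 10 with Tsc2 siRNA, where 31.8% did, and for 4 of 10 in Chd8 siRNA against Tsc2 siRNA, where 32.1% did. The median log2 fold change of the 10 was 0.10 for each knockdown without the block, beside -0.02 for all genes.

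**Figure D5:**
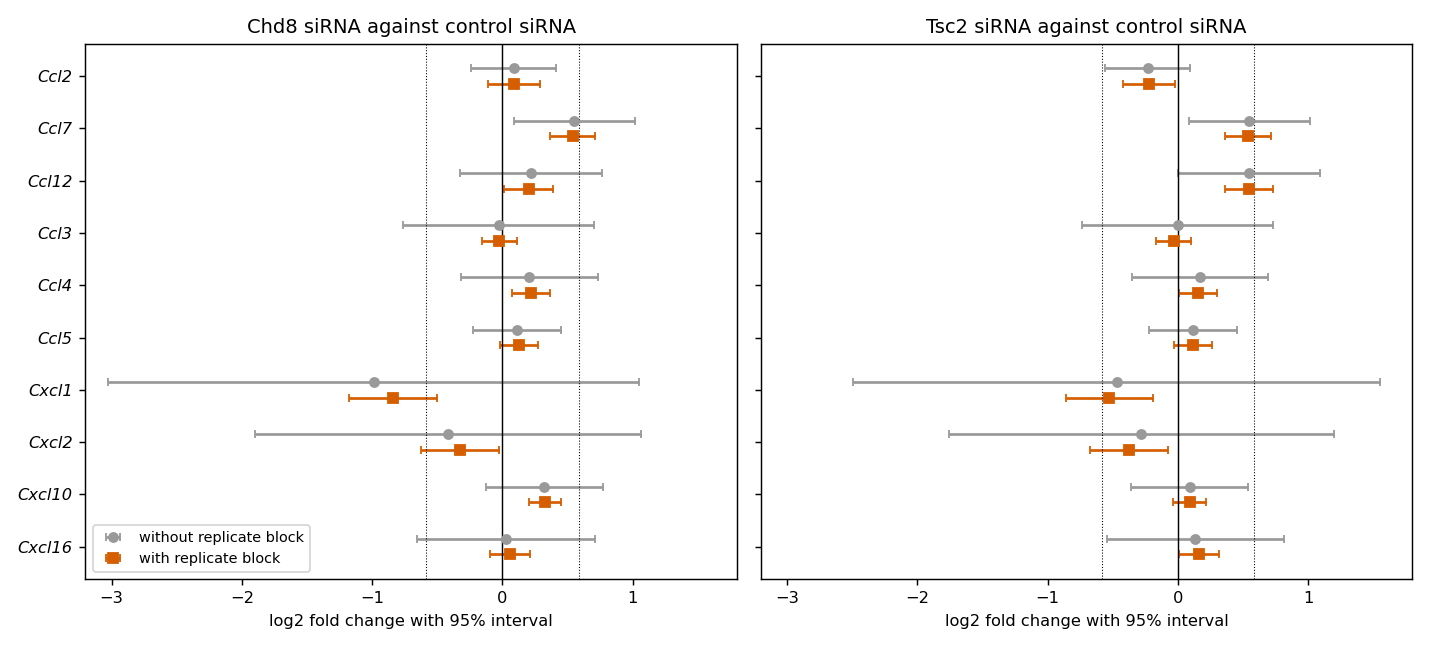
Log2 fold change of each chemokine with its 95% interval for Chd8 siRNA and for Tsc2 siRNA against control siRNA, without the replicate block (circles) and with it (squares). Dotted lines mark a fold of 1.5; only Cxcl1 with Chd8 siRNA, at -0.84 with the block, is past both the FDR and this fold.

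Of 24 other chemokines listed 18 passed the filter. The most abundant, Ccl9, was at 1370 to 2298 CPM, followed by Cxcl9 at 33.1 to 754 CPM, Ccl22 at 16.1 to 233 CPM, Cxcl11 at 29.3 to 124 CPM, and Cx3cl1 at 17.2 to 108 CPM. Without the block none of the 18 was called. With it, and against 0.535% of all genes tested for Chd8 siRNA and 0.387% for Tsc2 siRNA, Chd8 siRNA raised Ccl6 (log2 fold change 0.67, adjusted p = 0.0140) and Cxcl11 (0.66, adjusted p = 0.0157), the latter a Cxcr3 ligand whose intact protein C57BL/6 mice do not make, and lowered Cxcl3, so that 2 rose and 1 fell. Tsc2 siRNA raised 2, Ccl22 (0.77, adjusted p = 0.00995), a Ccr4 ligand, and Cx3cl1 (0.65, adjusted p = 0.0385), the ligand of the microglial receptor Cx3cr1. Both were also lower with Chd8 siRNA than with Tsc2 siRNA, with log2 differences of -1.05 for Ccl22 (adjusted p = 0.00373) and -0.71 for Cx3cl1 (adjusted p = 0.0322), and only Ccl22 in that comparison kept its call in 6 of 6 fits that left out a library. Ccl6 kept its call in 2 of 6 and Cxcl11 in 1 of 6 with Chd8 siRNA, Ccl22 and Cx3cl1 in 2 of 6 each with Tsc2 siRNA, and Cx3cl1 in 2 of 6 between the knockdowns. The number passed the test for 14 of the 18, against 25.0% of all genes tested.

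Several receptors of these ligands were scarce in the same cells. Of 23 receptors listed 12 passed the filter. Ccrl2, an atypical receptor, was at 142 to 268 CPM. Ccr3 was at 4.12 to 17.5 CPM, Cx3cr1 at 6.25 to 13.4 CPM, and Ccr2, the receptor of Ccl2, Ccl7, and Ccl12, at 4.37 to 8.48 CPM. Cxcr3 was at 0.0854 to 1.42 CPM and Cxcr2 did not pass the filter, at 0.0670 to 0.598 CPM.

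Of 33 genes that induce chemokines, degrade their mRNA, or process the proteins, 32 passed the filter, and the number passed the test for 24, against 25.0% of all genes tested. Tnf, a cytokine that induces Cxcl1 and Cxcl2, was most abundant, at 1255 to 1829 CPM in the number 1, 5029 to 5982 CPM in the number 2, and 9842 to 10640 CPM in the number 3 libraries. Its number 3 libraries exceeded number 1 by 2.68 on the log2 scale, next to 2.93 for Cxcl1 and 2.08 for Cxcl2. Il1b was at 1399 to 3840 CPM, Tnfaip3 at 1291 to 1763 CPM, Cd14 at 977 to 1451 CPM, and Nfkbiz at 682 to 1012 CPM. With the block 1 of the 32 was called with Chd8 siRNA, against 0.535% of all genes tested, Ifnb1, which encodes interferon-β (log2 fold change 1.25, adjusted p = 0.0218). It was at 6.75, 9.36, and 15.4 CPM in the control libraries and at 13.6, 30.6, and 31.9 CPM with Chd8 siRNA, and it kept its call in 2 of 6 fits that left out a library. None was called with Tsc2 siRNA in the fit with the block and all libraries. There too Ifnb1 was higher when a library was left out, from 0.60 to 1.32, and was called in 2 of 6 fits. Between the knockdowns Ifnb1 ranged from -0.06 to 0.64 and was called in 0 of 6, so a difference between them was not shown.

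The genes whose levels followed the mean standardized level of the 10 chemokines most closely over the 9 libraries were Epop (Pearson r = 0.970), Stip1 (0.970), Suz12 (0.966), Xiap (0.963), and Pwp1 (0.961), of 6139 candidates with a mean of at least 10 CPM. This is a description over 9 libraries that share 3 numbers, in which most of the variance of the chemokines lies between the numbers.

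The genes lie on GRCm38 in groups. Ccl2 (chr11:82035571-82037453), Ccl7 (chr11:82045712-82047525), and Ccl12 (chr11:82101845-82103400) are on the plus strand, and Ccl5 (chr11:83525778-83530518), Ccl3 (chr11:83647844-83649355), and Ccl4 (chr11:83662584-83664683) lie farther along. Cxcl1 (chr5:90891241-90893115) and Cxcl2 (chr5:90903871-90905938) are neighbors on chromosome 5, with Cxcl10 (chr5:92346638-92348889) on the minus strand, and Cxcl16 is at chr11:70453983-70459984. A single protein-coding transcript held over 95% of the counts of each member except Cxcl2, with 86.5%, and Cxcl16, with 58.6%. In Cxcl16 a transcript annotated for nonsense-mediated decay held 23.5% and a retained-intron transcript 17.9%, and the latter share was 18.0% ± 2.24 in control, 18.2% ± 5.01 in Chd8 siRNA, and 17.9% ± 2.05 in Tsc2 siRNA libraries (SD, n = 3 each). Of stretches of 31 bases in Cxcl16, 18.5% also occur in Zmynd15, which overlaps it on the opposite strand, as do 4.47% of those in Cxcl10 in Art3, and 7.59% of those in Cxcl2 occur in Cxcl3. The counts of these members, and those of the scarcer Cxcl3, are therefore less certain. Whether the counting used the strand is not stated. Ccl2, Ccl3, Ccl4, Ccl7, Ccl12, and Cxcl1 shared no such stretch with another gene.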

How the data were processed

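RNA-seq libraries of primary microglia were grouped by the siRNA in their labels, 3 per group. The authors quantified reads with salmon 0.14.1 on mm10 and tximport and deposited estimated counts per Ensembl transcript, without normalization or pooling; the labels name a stranded kit and the methods an Illumina total RNA preparation. Here the expected counts of 139852 of 140948 transcripts were summed to 54119 genes with GENCODE mouse release 21 and rounded. The 1096 unmatched transcripts, 0.27% of counts, were left out.

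Genes were tested with edgeR 4.0.16 (quasi-likelihood, filterByExpr, TMM) in R 4.3.3, with all 9 libraries in one fit and Benjamini-Hochberg adjustment over the 16273 genes tested, and a gene was called if it passed both an FDR of 0.05 and a change of 1.5-fold. Adjusted p-values are edgeR's unless stated otherwise. CPM are TMM-normalized. The fit without the replicate number is the planned one. The replicate numbers in the titles were taken to pair the libraries because deviations from group means correlated in each of the 9 same-number pairs (r = 0.337 to 0.628; -0.461 to 0.0559 for other pairs), so a block for the number was added. The methods give a distinct brain per biological replicate but do not say that equal numbers share a culture. p-values measure the spread between these libraries, and floors of 3 counts cover counting error only. DESeq2 1.42.0 and limma 3.58.1 served as alternatives, together with another normalization, no count filter, protein-coding transcripts only, 2-group fits, and each library left out. Promoter windows came from RefSeq, and figures were drawn with Python 3.11.15 and matplotlib 3.10.9. Scripts were tested on simulated data.

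The 10 chemokines and all gene lists were chosen with earlier results of these data known. All 10 were named in each comparison. From the lists, genes called with or without the block were named, and the 5 with the highest mean CPM of each list with their levels. The 5 genes most like the chemokines were those with the highest Pearson r. Cxcr2 and Cxcr3 were named as receptors of members, and marker genes were named where a result turned on them. Amino acid sequences were not used here. One gene of the lists is not reported here.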

Additional observations from a re-analysis of the deposited data

How the results depend on the processing

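Results here rest on 3 libraries per group, the siRNAs moved most chemokines by less than the numbers did, and a call often hung on 1 library. Without the block no chemokine was called under DESeq2 size factors, no count filter, DESeq2's Wald test, limma-voom, protein-coding transcripts, the 6 libraries of a contrast, or any library left out. The number of genes called in Chd8 siRNA against control, Tsc2 siRNA against control, and Chd8 siRNA against Tsc2 siRNA was 0 in each, and rose to 87, 63, and 36 with the replicate block, to 169, 104, and 61 with the block and no fold threshold (a setting chosen after seeing the data), and to 9, 6, and 5 with DESeq2's Wald test. It was 2 and 1 for the knockdowns against control with no count filter. With the block 1 chemokine was called with Chd8 siRNA, and with no fold threshold 3 and 2 passed for Chd8 and Tsc2 siRNA. The block changed no other call among the 10 chemokines, and the other genes named as called in the report, Chd8 included, were called with the block and not without it. With the block and 1 library left out, 0 to 2 chemokines were called in each knockdown, and the genes called were 20 (without control library 3) to 81 with Chd8 siRNA, 7 (without control library 3) to 131 (without Tsc2 siRNA library 1), and 4 (without Chd8 siRNA library 3) to 130 (without Tsc2 siRNA library 1) between the knockdowns; without the block they stayed at 0. The number passed for 8 to 10 of the 10 chemokines without 1 library.

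Of 210 log2 fold changes under the other settings 196 kept their direction and side of the threshold, and 13 changed sign, all in values near 0 and none of them called. Ccl3 with Tsc2 siRNA was -0.0013 and became 0.0026 with DESeq2 size factors and with the Wald test and 0.0194 with no filter. In Chd8 siRNA against Tsc2 siRNA, Ccl5 became 0.0048 with size factors and with the Wald test and 0.0105 with limma-voom and with the block, Ccl7 became -0.0075 with no filter and -0.0035 with protein-coding transcripts, Ccl3 became 6.45e-05 with limma-voom and 0.0068 with the block, and Cxcl2 became 0.0469 with limma-voom and 0.0527 with the block. The cause was not tested.

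Leaving out 1 library changed the sign of 36 of 180 values without the block and 21 of 180 with it. Over both kinds of fit, with Chd8 siRNA against control, Ccl2 ranged from -0.0325 to 0.18, Ccl12 from -0.0393 to 0.41, Ccl3 from -0.25 to 0.18, Cxcl1 from -1.81 to 0.13, Cxcl2 from -0.89 to 0.28, and Cxcl16 from -0.20 to 0.34. With Tsc2 siRNA against control, Ccl3 ranged from -0.22 to 0.28, Ccl4 from -0.0077 to 0.37, Ccl5 from -0.0192 to 0.26, Cxcl1 from -1.38 to 0.65, Cxcl2 from -0.94 to 0.42, Cxcl10 from -0.0527 to 0.24, and Cxcl16 from -0.10 to 0.45. Between the knockdowns, Ccl3 ranged from -0.30 to 0.18, Ccl4 from -0.17 to 0.21, Ccl5 from -0.0730 to 0.13, Ccl7 from -0.19 to 0.14, Cxcl1 from -1.34 to 0.39, Cxcl2 from -0.62 to 0.52, and Cxcl16 from -0.34 to 0.12. The positive value of Cxcl1 with Chd8 siRNA arose without the block when control library 3 was left out.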
